A study of Mus musculus with 6 samples.

Results

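The genes described here are 9 serpins measured by total RNA sequencing in synovial fibroblasts: Serpina3n, Serpina3m, Serpina3g, Serpina3i, Serpine2, Serpinb6a, Serpinb9, Serpinf1 and Serpinh1. They were taken by symbol from a table of 24348 genes that holds 31 serpin genes, and they were picked with their values after immune complex injection already known. Fold changes, intervals and counts of calls among the 9 are therefore given as descriptions, and nothing is drawn from them as tests. The cells were fibroblasts collected by flow sorting of the synovium, the membrane that lines joints, of mice whose genotype the labels give as C57BL/6 in both groups, with no transgene or deletion named. The study's methods give C57BL/6J as the background of its wild-type mice and state that both sexes were used. Mice were aged 8 to 20 weeks unless stated otherwise, and no other age was stated for this experiment. The IC group (3 libraries) received an intravenous injection of immune complexes, which the study's methods describe as ovalbumin bound by rabbit polyclonal antibodies against it, and the vehicle group (3 libraries) received vehicle. The time from injection to tissue collection, the markers of the sort and the number of mice in each library are not given in the sources used here, so the spread between libraries may be partly technical.

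Serpins are proteins of 1 shared fold, and most of them inhibit serine proteases. The protease cuts an exposed reactive centre loop near the carboxyl end of the serpin, and the serpin then springs into a new shape that traps the protease, so each molecule is used once. The letters of the family name mark clades. Clade A holds mostly secreted plasma-type inhibitors, and clade B mostly intracellular ones that protect cells from their own or incoming proteases. Clade E holds the inhibitors of plasminogen activators and thrombin, and some members such as Serpinf1 and Serpinh1 inhibit no protease at all. In the mouse, the single human gene SERPINA3 (alpha-1-antichymotrypsin) corresponds to a row of Serpina3 genes on chromosome 12 that arose by duplication, of which Serpina3n is the best known as a secreted product of stressed or inflamed tissue.

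The 4 Serpina3 genes are near copies, and their sequences show where a read can and cannot tell them apart. Over aligned coding bases of GENCODE M21 (GRCm38, the assembly that mm10 names), Serpina3m was identical to Serpina3n at 85.2% of bases, Serpina3i at 85.0% and Serpina3g at 84.7% (648 bases aligned), against 56.3% to 60.9% for the 5 members of other clades. The 60-base coding window in which the 4 genes are least alike is shown because it lies close to the carboxyl end, as the reactive centre loop does. It covers coding bases 1121 to 1180 of Serpina3n and ends 74 bases before the last coding base. Capitals mark bases that differ from Serpina3n.
Serpina3n: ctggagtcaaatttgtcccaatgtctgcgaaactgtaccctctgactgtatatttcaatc
Serpina3m: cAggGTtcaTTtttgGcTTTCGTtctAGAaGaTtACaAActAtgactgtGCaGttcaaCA
Serpina3i: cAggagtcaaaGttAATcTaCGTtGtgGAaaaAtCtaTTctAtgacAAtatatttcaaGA
Serpina3g: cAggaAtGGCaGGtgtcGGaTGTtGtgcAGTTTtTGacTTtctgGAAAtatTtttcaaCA
Serpina3m shared 33 of the 60 bases with Serpina3n, Serpina3i 39 and Serpina3g 31. Just upstream, in coding bases 1057 to 1116, the most alike window had 60 of 60 bases in common between Serpina3n and Serpina3m, 58 for Serpina3i and 57 for Serpina3g.
Serpina3n: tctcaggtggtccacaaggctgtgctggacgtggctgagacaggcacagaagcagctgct
Serpina3m: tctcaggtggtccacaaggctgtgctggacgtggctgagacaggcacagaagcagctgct
Serpina3i: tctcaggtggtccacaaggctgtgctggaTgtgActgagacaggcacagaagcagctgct
Serpina3g: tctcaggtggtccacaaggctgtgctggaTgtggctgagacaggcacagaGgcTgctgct
Over whole transcripts, the share of 50-base stretches also found in another gene was 6.9% for Serpina3n, 19.1% for Serpina3m, 15.9% for Serpina3i and 15.5% for Serpina3g. Most of the shared stretches of Serpina3m (16.0% of its stretches) were in Serpina3k, a neighbour not analysed here that overlaps it on the same strand. For the other members the share was at most 0.751%. The labels give reads of 150 bases, and a whole read matches a similar gene elsewhere less often than a 50-base stretch does. That need not hold where genes overlap, as Serpina3m and Serpina3k do. The share of reads affected was not measured. Counts of Serpina3m, Serpina3g and Serpina3i are less certain than those of Serpina3n. How reads with more than 1 match were counted is not given in the sources used here.

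The 6 libraries had total counts of 40114331 to 56714304, and DESeq2 was run on the 19925 genes that had 10 counts or more in 3 or more libraries, the 9 serpins among them. Values below are normalized counts, which are read counts divided by the library's DESeq2 size factor, with the sample SD over 3 libraries a group, and fold changes are unshrunken log2 values of IC against vehicle with the standard error (SE) of the fit. The fibroblast marker list was present in full (13 of 13 genes in the table), with 1 gene called higher and 3 lower. Calls are at a DESeq2 adjusted p under 0.05, which 2.10% of all 19925 genes tested met (1.03% higher, 1.07% lower). CPM are a gene's counts scaled to the same total in each library. The fibroblast list summed to 45828 to 47787 CPM after IC and 46747 to 56705 after vehicle. Markers of macrophages summed to 32.3 to 50.7 CPM after IC and 39.6 to 51.7 after vehicle, with 8 of 13 genes in the table. Neutrophil markers (3 of 8 genes in the table) summed to at most 0.882 and lymphocyte markers (2 of 10) to at most 2.93. Skeletal muscle markers (14 of 14 in the table, 3 called lower and 0 higher) were lower after IC, at 24.4 to 66.9 against 73.7 to 155 CPM. Endothelial markers (10 of 10, 2 called lower and 0 higher) were at 209 to 284 against 281 to 336. Mural cell markers (9 of 9, 1 called lower and 0 higher) were at 501 to 617 against 620 to 668. Schwann cell markers (8 of 8, 2 called lower and 0 higher) were at 64.4 to 157 against 123 to 163, with overlapping ranges. Chondrocyte and bone markers (9 of 10) were at 685 to 778 against 436 to 653, a sum made up mostly of Comp. Comp had 622, 720 and 675 CPM in IC replicates 1, 2 and 3 and 366, 568 and 593 in vehicle replicates 1, 2 and 3. Over the 7 tested genes of that list the median log2 fold change was −0.18, with 1 called higher and 0 lower. In RNA from many cells, a change in the number of expressing cells cannot be told apart from a change in RNA per cell, and the part that these shifts have in the serpin values was not tested.

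Serpina3n, a secreted inhibitor of neutrophil elastase, granzyme B and related proteases, was the member whose level differed most in counts between treatments. It lies on chromosome 12 at chr12:104406729-104414329 (GRCm38, plus strand) and is protein coding. Normalized counts were 15817, 20470 and 25045 in IC replicates 1, 2 and 3, and 5642, 7054 and 6106 in vehicle replicates 1, 2 and 3. Each IC library was above each vehicle library, and the gap between the lowest IC and the highest vehicle library exceeded the SD of either group. The group means were 20444 ± 4614 and 6267 ± 720 (SD, n = 3 each), a 3.26-fold ratio of means and a log2 fold change of 1.71 (SE 0.132). The IC libraries spread more than the vehicle libraries, with coefficients of variation of 22.6% and 11.5%. Leaving out each library in turn gave 1.53 (without IC replicate 3) to 1.86 (without IC replicate 1). In CPM, Serpina3n took 329, 431 and 517 in the IC libraries and 121, 143 and 125 in the vehicle libraries.

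Serpina3m, a clade A gene next to Serpina3n with no target protease named here, had far fewer reads. It spans chr12:104338486-104394257 on the plus strand, where it overlaps Serpina3k and the pseudogene Serpina3l-ps. Its normalized counts were 67.2, 144.7 and 126.4 in IC replicates 1, 2 and 3 and 30.3, 13.2 and 3.65 in vehicle replicates 1, 2 and 3. The groups did not overlap, but the vehicle values rest on 37, 14 and 3 reads. Means were 113 ± 40.5 and 15.7 ± 13.5, with a log2 fold change of 2.81 (SE 0.604) that moved from 2.37 without vehicle replicate 3 to 3.70 without vehicle replicate 1. For every 1000 reads of Serpina3n there were 4.25, 7.07 and 5.04 reads of Serpina3m after IC and 5.38, 1.87 and 0.597 after vehicle. The highest of these 3 vehicle values lies within the IC range and the other two lie below it, so the ratio of the paralogs overlapped between groups.

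Serpina3g and Serpina3i, the other duplicates among the 9, were near 100 normalized counts and overlapped between groups. Serpina3g, an inhibitor of cathepsins known from haematopoietic and activated T cells, lies at chr12:104236245-104241939 (plus strand). Its values were 196, 96.1 and 242 in IC replicates 1, 2 and 3 and 107, 31.2 and 87.5 in vehicle replicates 1, 2 and 3. IC replicate 2 was below vehicle replicate 1, and the replicate 2 library of each group was the lowest of its group. The means of 178 ± 74.6 and 75.1 ± 39.2 gave a log2 fold change of 1.25 (SE 0.456), from 0.88 to 1.59 with a library left out. Serpina3i, at chr12:104263122-104269372 (plus strand), had 99.2, 147 and 112 in IC replicates 1, 2 and 3 and 112, 113 and 90.0 in vehicle replicates 1, 2 and 3. Its means of 119 and 105, with coefficients of variation of 20.6% and 12.4%, differed by less than the SD of 24.6 within the IC group, and its log2 fold change of 0.18 had an SE of 0.338.

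**Figure D1:**
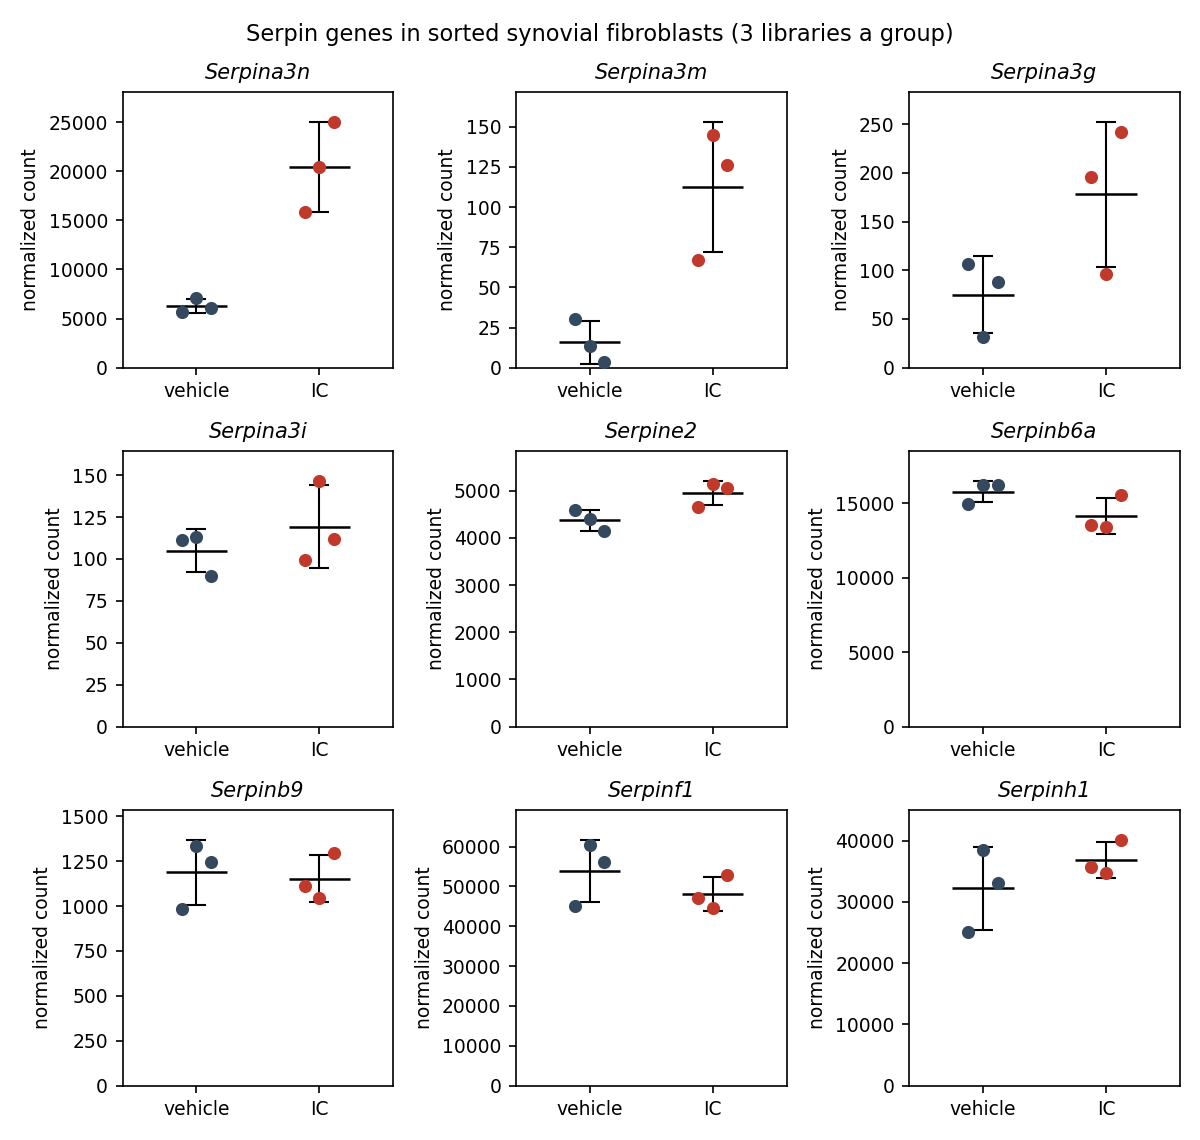
Normalized counts (vertical axes, from 0, each with its own scale) of the 9 serpins in 3 vehicle (dark) and 3 IC (red) libraries; points are libraries, horizontal lines means and bars 1 SD. The IC points lie clear of the vehicle points for Serpina3n, Serpina3m and, by a narrow gap, Serpine2, and the groups overlap for the other 6 genes.

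Serpine2 (protease nexin 1), a secreted inhibitor of thrombin, urokinase and tissue plasminogen activator, had a log2 fold change just above 0. It lies at chr1:79794197-79861180 on the minus strand. Its normalized counts were 4651, 5144 and 5055 in IC replicates 1, 2 and 3 and 4584, 4392 and 4140 in vehicle replicates 1, 2 and 3. The groups did not overlap, by a gap between IC replicate 1 and vehicle replicate 1 that is smaller than either SD, and under total-count scaling they overlapped. The means of 4950 ± 263 and 4372 ± 223 gave a 1.13-fold ratio and a log2 fold change of 0.18 (SE 0.087), from 0.14 to 0.22 with a library left out. Its coefficients of variation, 5.31% and 5.10%, were low beside those of Serpina3n.

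The clade B members had log2 fold changes just below 0. Serpinb6a, a cytoplasmic inhibitor of cathepsin G and trypsin-like proteases, lies at chr13:33917918-34002794 on the minus strand, and Nqo2, Ripk1 and the antisense RNA 1110046J04Rik overlap it on the other strand. It had 13520, 13388 and 15530 normalized counts in IC replicates 1, 2 and 3 and 14930, 16225 and 16186 in vehicle replicates 1, 2 and 3. IC replicate 3 lay above vehicle replicate 1, so the groups overlapped, although under total-count scaling the IC values were all below. Means were 14146 ± 1200 and 15781 ± 736 and the log2 fold change was −0.16 (SE 0.083). Serpinb9, the cytoplasmic inhibitor of granzyme B, lies at chr13:33003250-33017957 (plus strand). It had 1112, 1047 and 1298 in IC replicates 1, 2 and 3 and 985, 1334 and 1248 in vehicle replicates 1, 2 and 3. Vehicle libraries held both its lowest and its highest value, and the log2 fold change of −0.04 (SE 0.148) kept its sign in 8 of 11 alternative fits.

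The members that inhibit no protease were the most abundant of the 9 and overlapped between groups. Serpinf1 encodes pigment epithelium-derived factor, a secreted inhibitor of blood vessel growth that is abundant in fibroblasts, and lies at chr11:75409769-75422701 on the minus strand. Its normalized counts were 47039, 44609 and 52919 in IC replicates 1, 2 and 3 and 45106, 60377 and 56201 in vehicle replicates 1, 2 and 3. Vehicle replicate 1 lay among the IC libraries. Means were 48189 ± 4273 and 53895 ± 7892, with a log2 fold change of −0.16 (SE 0.104) that ran from −0.28 without vehicle replicate 1 to −0.07 without vehicle replicate 2. Serpinh1 encodes Hsp47, the procollagen chaperone of the endoplasmic reticulum, and lies at chr7:99345376-99353239 on the minus strand. It had 35618, 34770 and 40164 in IC replicates 1, 2 and 3 and 25077, 38511 and 33105 in vehicle replicates 1, 2 and 3. Again vehicle replicate 1 stood lowest of its group, and without it the log2 fold change of 0.19 (SE 0.121) was 0.04.

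DESeq2 called 2 of the 9 serpins at an adjusted p under 0.05, Serpina3n and Serpina3m, both higher after IC, where it called 2.10% of all 19925 genes tested (1.03% higher, 1.07% lower). As the 9 were picked on this contrast, nothing is read from that count. The quasi-likelihood test of edgeR called Serpina3n but not Serpina3m, with 0.186% of all genes called. Without IC replicate 2, DESeq2 gave Serpina3m no adjusted p, and without vehicle replicate 1 it also called Serpina3g higher and Serpinf1 lower, which made 4. Of the 9, 6 had a log2 fold change above 0 and 3 below, with a median of 0.18 against −0.00187 over all genes tested. The 3 IC values lay above the 3 vehicle values for 3 of the 9, and groups did not overlap in either direction for 15.8% of all genes tested (8.09% with IC above, 7.67% with IC below).

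**Figure D2:**
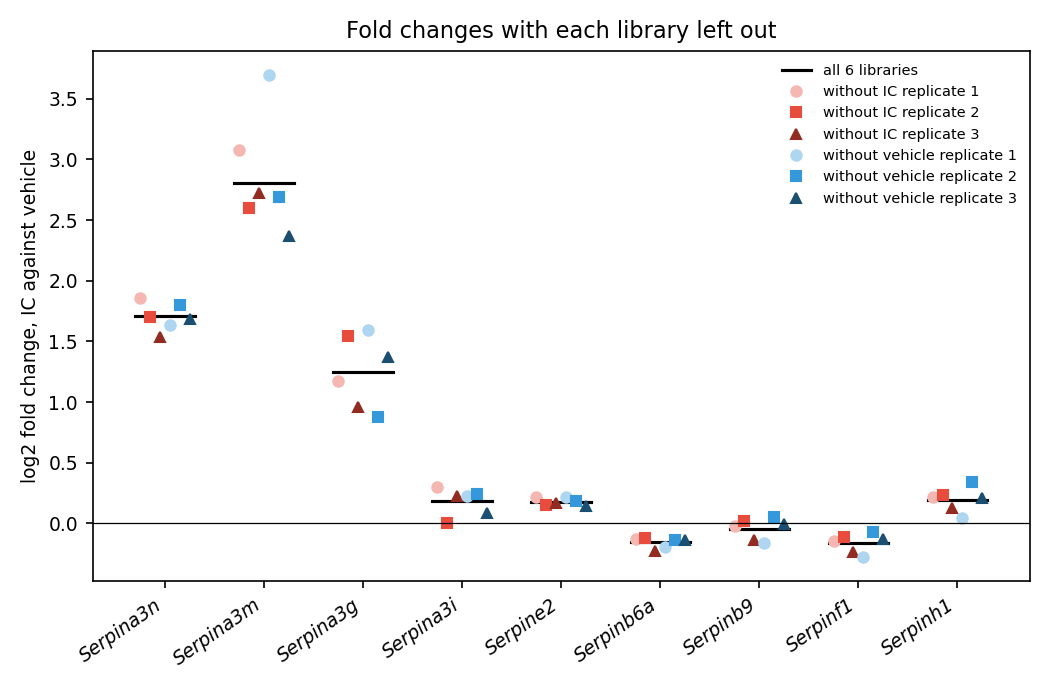
Log2 fold change of IC against vehicle (vertical axis) of the 9 serpins with all 6 libraries (black lines) and with each library left out (coloured symbols). Serpina3n stays between 1.53 and 1.86 and Serpina3m between 2.37 and 3.70, while Serpinb9 falls on both sides of 0.

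The other 22 serpin genes of the table are those left after the 9 were picked with values known, so their counts are descriptions too and not an unselected comparison. Of these, 18 were tested and 0 were called by DESeq2, 0 by edgeR, and 0 had an unadjusted p under 0.05. Over all 19925 genes tested, DESeq2 called 2.10% and edgeR 0.186%, and 1952 had an unadjusted p under 0.05 by DESeq2. DESeq2 gave 6 low genes of the 18 no adjusted p. The log2 fold changes of the 18 were above 0 for 9 genes and below 0 for 9, with a median of 0.07. Among those with the highest mean were Serping1, Serpina3c, Serpinb1a and Serpinb8. Serping1, the C1 inhibitor of complement and contact activation, stood at 36305 ± 3657 after IC and 39309 ± 6179 after vehicle (DESeq2 adjusted p = 0.826). Serpinb1a, an intracellular inhibitor of neutrophil proteases, had 1178 ± 317 against 1429 ± 259 (DESeq2 adjusted p = 0.650), and Serpinb8 413 ± 122 against 321 ± 32.1 (0.633). The 95% interval of the log2 fold change of Serping1 ran from −0.33 to 0.10, so a log2 change of 1 in either direction lay outside it. Serpinb1b, named after its values were seen, was the 1 gene of the 18 whose IC values all lay below the vehicle values. It had 11.4 to 19.7 normalized counts after IC against 22.7 to 64.0 after vehicle. Over all genes tested, IC values all lay below for 7.67%, and nothing is read from this 1 gene.

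**Figure D3:**
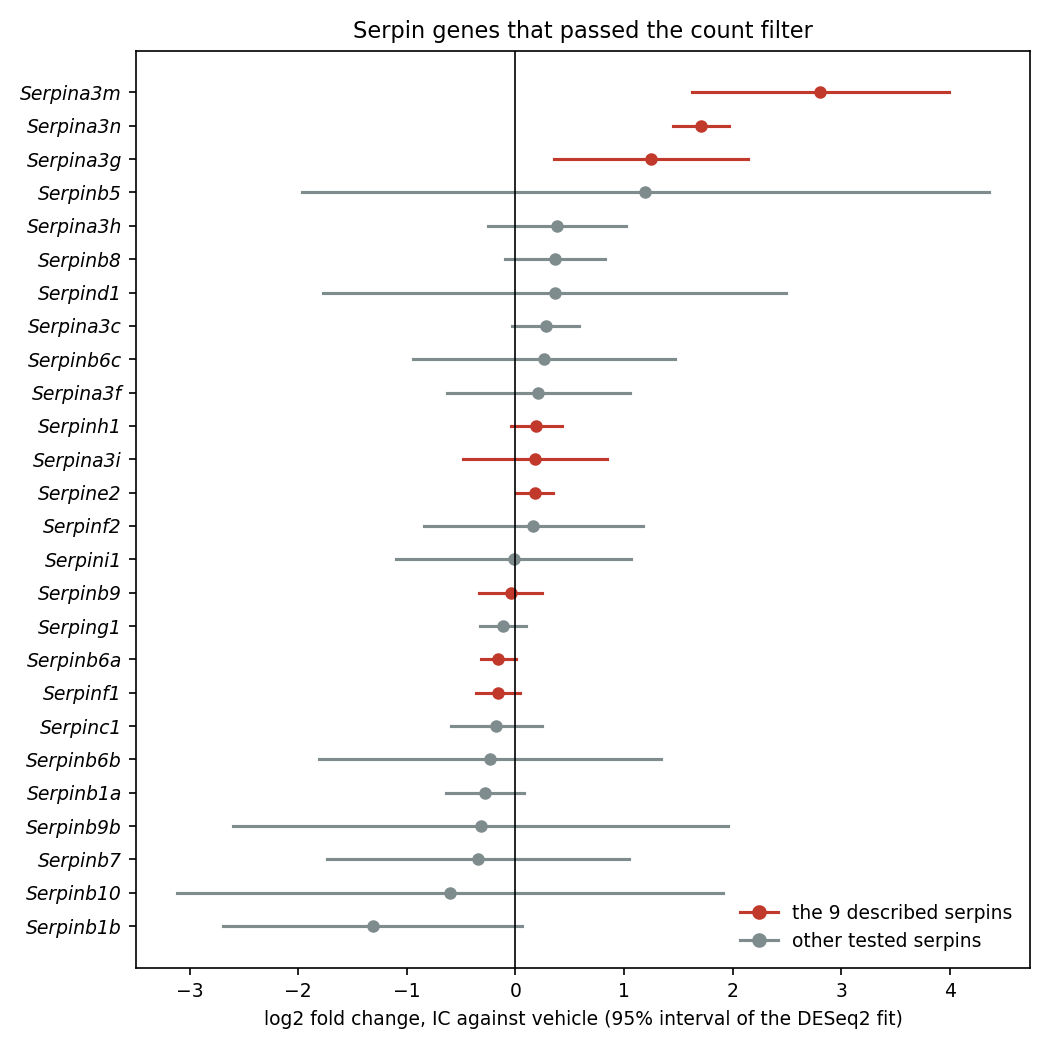
Log2 fold change of IC against vehicle (horizontal axis; points) with the 95% interval of the DESeq2 fit (bars) for 26 serpin genes that passed the count filter, the 9 described here in red and 17 others in grey. Serpina3m, Serpina3n and Serpina3g have the 3 highest points, at 2.81, 1.71 and 1.25, and wide bars belong to genes with few reads.

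Within the Serpina3 row of chromosome 12, the 7 tested genes, 4 of them members picked on this contrast, had log2 fold changes above 0, with a median of 0.38. Over all genes tested, 9881 of 19925 were above 0. The called genes among the 7 were Serpina3n and Serpina3m, beside 2.10% called over all genes, and nothing is read from these counts. Serpina3c, the Serpina3 gene with the most reads after Serpina3n, lies 260 kb from it and had 2214, 2344 and 3638 normalized counts in IC replicates 1, 2 and 3 and 2074, 2281 and 2392 in vehicle replicates 1, 2 and 3. Its log2 fold change was 0.28 (DESeq2 adjusted p = 0.523), and the groups overlapped. The ratio of Serpina3n to Serpina3c reads, which library scaling cannot change, was 7.14, 8.73 and 6.88 in the IC libraries and 2.72, 3.09 and 2.55 in the vehicle libraries. Serpina3n made up 84.5%, 86.8% and 84.7% of all reads counted to Serpina3 genes after IC and 69.3%, 72.2% and 66.8% after vehicle. Serpina3c made up 11.8%, 9.94% and 12.3% after IC and 25.5%, 23.4% and 26.2% after vehicle, so the shares of both genes lay apart between groups.

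**Figure D4:**
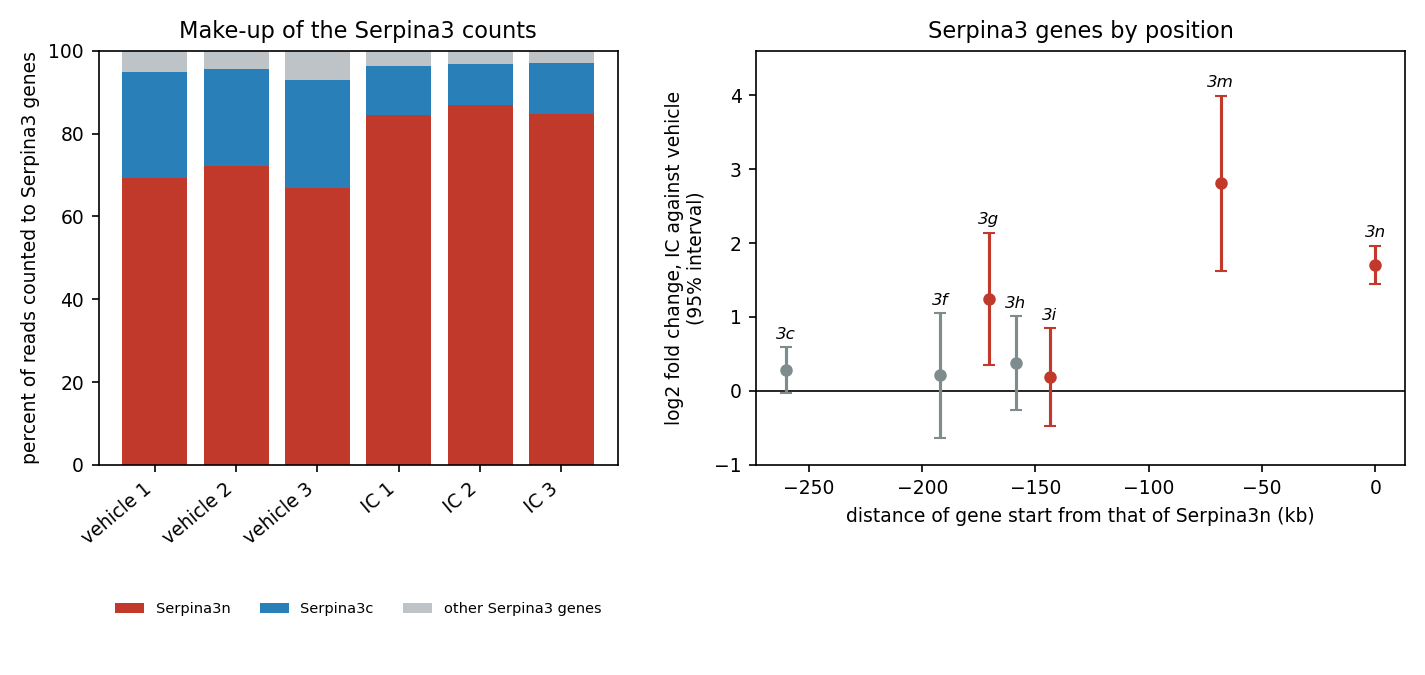
Left, percent of the reads counted to Serpina3 genes that belong to Serpina3n, Serpina3c and the remaining Serpina3 genes in each library. Right, log2 fold change with its 95% interval for the 7 tested Serpina3 genes against the distance of their start from that of Serpina3n in kb. Serpina3n takes 66.8% to 72.2% of the reads in vehicle and 84.5% to 86.8% in IC libraries, and Serpina3m and Serpina3n are the 2 genes furthest to the right of the plot.

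Promoters are shown for the Serpina3 genes as a description of their sequence, and a link between promoter and fold change was not tested. RefSeq promoter sequences (GRCm38.p6, 250 bases before to 50 after each start) matched 8 of the 9 members. The Serpina3n promoter was identical to that of Serpina3c at 93.5% of aligned bases (275 of 294), to that of Serpina3i at 76.3% (203 of 266) and to that of Serpina3g at 71.6% (144 of 201). A stretch alike in these genes is printed 5′ to 3′ on each gene's strand, with a 9-base core in capitals that falls 123, 120, 33 and 102 bases before the start in Serpina3n, Serpina3c, Serpina3g and Serpina3i. The positions are chr12:104406559-104406619 (plus strand), chr12:104153958-104154018 (minus strand), chr12:104236088-104236146 (plus strand) and chr12:104262994-104263054 (plus strand) in the same order.
Serpina3n: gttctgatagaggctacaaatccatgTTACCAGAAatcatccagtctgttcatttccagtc
Serpina3c: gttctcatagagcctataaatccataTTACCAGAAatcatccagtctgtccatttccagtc
Serpina3g: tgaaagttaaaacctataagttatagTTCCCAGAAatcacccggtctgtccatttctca
Serpina3i: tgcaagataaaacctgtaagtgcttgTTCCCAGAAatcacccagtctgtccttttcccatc
The core of Serpina3g and Serpina3i matches TTCNNNGAA, the letters that STAT factors are known to bind, which 8.3% of 32851 promoters hold on either strand. Serpina3n and Serpina3c differ from it by C3A, counted from the first base of the core with Serpina3i as reference. The other motifs searched on both strands were TTCCNGGAA, which is a subset of the first (1.15% of promoters), an NF-kB motif (0.411%), the interferon-stimulated response element (3.44%), the C/EBP letters TTGCNNAA (10.8%), the glucocorticoid response element (0.00913%), the AP-1 letters TGANTCA (7.81%), the heat shock element (0.603%) and TATAAA (13.6%). Serpinb9 held the interferon-stimulated response element 46 bases before its start. Of the 2 promoters of Serpinb6a, 1 held TTCCNGGAA 77 bases before and 20 bases after its start and the interferon-stimulated response element 84 bases before it. None of these motifs was in the windows of Serpina3n, Serpine2, Serpinf1 or Serpinh1.

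Levels were compared between genes as normalized counts per kb of summed exon length. In vehicle libraries the order of the members was Serpinf1 at 22846 ± 3346, Serpinh1 at 13193 ± 2767, Serpina3n at 3037 ± 349, Serpinb6a at 2917 ± 136, Serpine2 at 528 ± 26.9, Serpinb9 at 340 ± 52.0, Serpina3i at 47.2 ± 5.84, Serpina3g at 35.7 ± 18.6 and Serpina3m at 9.15 ± 7.87. The ranges of Serpina3n and Serpinb6a overlapped, as did those of Serpina3i and Serpina3g and those of Serpina3g and Serpina3m. Group ranges therefore did not order these pairs. Within libraries, normalized counts of Serpina3g were above those of Serpina3m in vehicle replicates 1, 2 and 3 (107, 31.2 and 87.5 against 30.3, 13.2 and 3.65). After IC, Serpina3n at 9905 ± 2236 stood clear of Serpinb6a at 2615 ± 222 and still below Serpinh1 at 15084 ± 1187 and Serpinf1 at 20428 ± 1811. Serpine2 was at 597 ± 31.7, Serpinb9 at 330 ± 37.2, Serpina3g at 84.6 ± 35.4, Serpina3m at 65.6 ± 23.6 and Serpina3i at 53.7 ± 11.1 per kb after IC. The last 3 could not be ordered within their ranges. Of the serpins outside the 9, Serping1 alone reached the range of the top members, at 16907 ± 2658 per kb after vehicle and 15615 ± 1573 after IC. With the longest transcript as the length, vehicle Serpinb6a (7202 per kb) lay above Serpina3n (3037 per kb), so the order of these genes depends on the gene model.

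**Figure D5:**
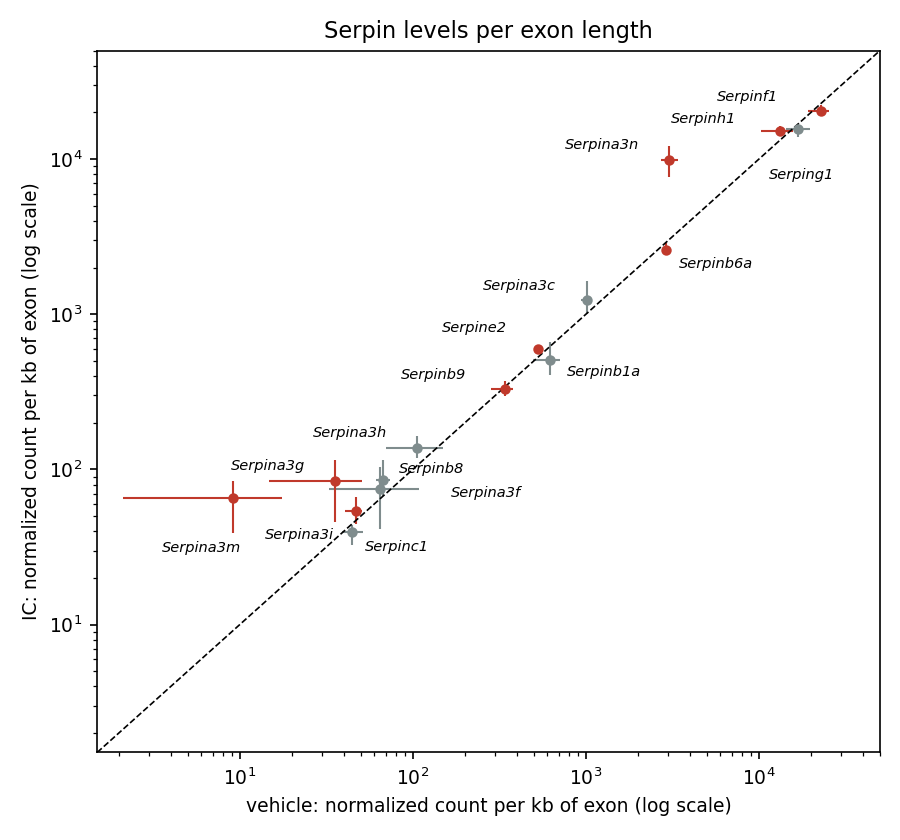
Mean normalized count per kb of exon in vehicle (horizontal, log scale) and IC libraries (vertical, log scale) for the 9 serpins (red) and most other serpins with a mean of 100 or more (grey), where bars span the lowest to the highest library and the dashed line marks equal levels. Serpina3n, at 3037 and 9905, stands off the line at a high level, and Serpina3m and Serpina3g stand off it at low levels with wide bars.

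The 9 serpins together took 2460, 2525 and 2902 CPM in IC replicates 1, 2 and 3 and 2077, 2599 and 2402 in vehicle replicates 1, 2 and 3. These sums overlapped between groups. The share of them that was Serpina3n was 13.4%, 17.1% and 17.8% after IC and 5.84%, 5.51% and 5.21% after vehicle.

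The lists of related genes below give the proteases, partner inhibitors and pathways around these serpins. They were chosen with earlier results of these data known, so their counts and adjusted p values are descriptions and not tests of a pathway. Beside the counts of each list, DESeq2 called 2.10% of all 19925 genes tested (1.03% higher, 1.07% lower) and edgeR 0.186%. Of 34 serine proteases and other serpin targets listed, 23 were tested, with 1 called higher and 0 lower and a median log2 fold change of −0.02. The 1 was Pcsk5, a proprotein convertase, at 4365 ± 488 after IC and 3386 ± 258 after vehicle, a log2 fold change of 0.37 (SE 0.105) and a DESeq2 adjusted p of 0.0264. It was called in 2 of 6 fits with a library left out (up to 0.213 without IC replicate 3), and its call was lost without IC replicate 2 or 3 or vehicle replicate 2 or 3. Among the leukocyte proteases listed, Gzmb, Gzma and Ctsg were not analysed here. Elane, neutrophil elastase, had 13.3 ± 6.36 normalized counts in IC and 21.6 ± 7.51 in vehicle libraries with overlapping groups and no adjusted p from DESeq2 (0.864 by edgeR). The related Prtn3 had 135 ± 46.4 against 178 ± 48.4 (DESeq2 adjusted p = 0.796). Both were named after their values were seen. The mast cell proteases Cma1 and Mcpt4 did not pass the count filter.

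Of 32 protease inhibitors of other families, 24 were tested, with 1 called higher and 2 lower. Pi15, a secreted trypsin inhibitor, stood at 6423 ± 501 after IC and 10101 ± 1200 after vehicle (log2 fold change −0.65, DESeq2 adjusted p = 7.4e-08). Itih5, a hyaluronan-binding heavy chain of the inter-alpha-trypsin inhibitor family, had 17952 ± 1110 against 26982 ± 3021 (−0.59, DESeq2 adjusted p = 1.0e-07). Timp1, an inhibitor of matrix metalloproteinases, had 1074 ± 139 against 582 ± 133 (0.89, DESeq2 adjusted p = 0.000272). These 3 calls held in 6 of 6 fits with a library left out, and edgeR called Pi15 and Itih5 but not Timp1 (adjusted p = 0.0836).

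Of 24 genes of the plasmin and thrombin systems and their receptors, which Serpine2 acts on, 22 were tested, with 1 called higher and 1 lower and a median of −0.07. Plaur, the urokinase receptor, had 1216 ± 107 against 820 ± 122 (0.57, DESeq2 adjusted p = 0.00932), and its call was lost without IC replicate 1 or 3 or vehicle replicate 3 (adjusted p up to 0.121). Vldlr, an endocytic receptor that takes up serpin and protease complexes, had 2477 ± 208 against 3235 ± 232 (−0.39, DESeq2 adjusted p = 0.0125). Its call was lost without IC replicate 2 or 3 or vehicle replicate 2 or 3 (up to 0.140). By edgeR their adjusted p values were 0.125 and 0.120.

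Of 31 genes of collagen chains and collagen folding, the clients and partners of Serpinh1, 31 were tested, with 4 called higher and 1 lower and a median of 0.01. P4ha3, a subunit of collagen prolyl 4-hydroxylase, had 718 ± 84.9 against 347 ± 17.1 (1.05, DESeq2 adjusted p = 3.8e-07), and Col12a1, a fibril-associated collagen, 12227 ± 746 against 8886 ± 1008 (0.46, DESeq2 adjusted p = 0.000232). Both calls held in 6 of 6 fits with a library left out, and edgeR called P4ha3 (adjusted p = 0.0206) but not Col12a1 (0.0822). Col3a1, a fibrillar collagen, was lower, at 579268 ± 27905 against 752186 ± 106044 (−0.38, DESeq2 adjusted p = 0.00679), a call lost without IC replicate 1 or 2 or vehicle replicate 2 or 3 (up to 0.173) and not made by edgeR (0.177). Serpinh1 itself was among the genes whose groups overlapped.

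Of 25 acute-phase genes, the set that Serpina3 genes are counted with in liver, 17 were tested and 0 were called by DESeq2 or edgeR. Their median was 0.15, and 4 had an unadjusted p under 0.05 by DESeq2, as did 1952 of all 19925 genes tested. The 2 with the highest level were C3, complement component 3, at 237910 ± 24876 against 250592 ± 43928, and Cebpd, a transcription factor of the acute-phase response, at 21990 ± 713 against 20604 ± 1022. Hepatocyte markers (4 of 10 genes in the table) summed to 0.703 to 1.22 CPM after IC and 1.13 to 2.28 after vehicle, and Alb, which encodes albumin, had 4 to 18 reads in a library.

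Of 24 genes of signalling through gp130 and STAT3, known to act on Serpina3n in other tissues, 24 were tested, with 3 called higher and 1 lower and a median of 0.08. Il6, the cytokine, had 10386 ± 2063 against 7117 ± 908 (0.55, DESeq2 adjusted p = 0.00183), a call lost without IC replicate 3 or vehicle replicate 2 or 3 (up to 0.0759). Pim1, a kinase gene that STAT3 acts on, had 12887 ± 1740 against 9959 ± 446 (0.37, DESeq2 adjusted p = 0.0103), and Cntfr, the ciliary neurotrophic factor receptor, 1450 ± 70.3 against 2077 ± 406 (−0.52, DESeq2 adjusted p = 0.0130). The call of Pim1 was lost without IC replicate 2 or 3 or vehicle replicate 2 or 3 (up to 0.130). That of Cntfr held without vehicle replicate 1 and was lost in the other 5 such fits (up to 0.170, without vehicle replicate 2). By edgeR the adjusted p values of Il6, Pim1 and Cntfr were 0.152, 0.178 and 0.149.

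Of 18 glucocorticoid-responsive genes, 18 were tested, with 1 called higher and 2 lower and a median of 0.06. Klf9, a transcription factor gene, had 11375 ± 273 against 14054 ± 797 (−0.31, DESeq2 adjusted p = 0.00436), a call that held in 6 of 6 fits with a library left out. Nr3c1, the glucocorticoid receptor, had 12906 ± 309 against 15265 ± 686 (−0.24, DESeq2 adjusted p = 0.0376) and kept its call without vehicle replicate 1 but lost it in the other 5 such fits (up to 0.190, without IC replicate 2). Zbtb16, a zinc finger transcription factor gene, had 4660 ± 696 against 3522 ± 467 (0.40, DESeq2 adjusted p = 0.0455), with overlapping groups and a call lost without replicate 1 or 2 of either group (up to 0.428). None of the 3 was called by edgeR (adjusted p = 0.129, 0.230 and 0.261).

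The genes whose pattern over the 6 libraries was most like that of Serpina3n were named by the smallest root mean square difference of log2(normalized count + 1) after centring each gene, among 13434 genes with a mean of at least 100. They were Fgf9, a fibroblast growth factor (0.319), P4ha3 (0.367), Prg4, which encodes lubricin (0.393), and the noncoding RNA genes Gm24265 (0.398) and Scarna9 (0.403). The median gene stood at 0.881. Prg4 is also on the fibroblast marker list, in which genes were called in both directions, so no cell type is read from it. Fgf9 had 426, 426 and 454 normalized counts in IC replicates 1, 2 and 3 and 194, 219 and 162 in vehicle replicates 1, 2 and 3. Prg4 had 17352, 22054 and 22899 in IC replicates 1, 2 and 3 and 8263, 13855 and 10408 in vehicle replicates 1, 2 and 3. Like Serpina3n, both had their IC libraries above their vehicle libraries, and vehicle replicate 2 was the highest of the vehicle libraries for all 3. Each of the 5 had a smaller ratio of means than the 3.26-fold of Serpina3n. With 6 libraries in 2 groups these likenesses are descriptions, and with a pseudocount of 10 the nearest 5 shared 4 of these genes.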

How the data were processed

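Total RNA was sequenced from sorted synovial fibroblasts in 3 IC and 3 vehicle libraries, grouped as labelled. The authors deposited raw read counts for each gene, obtained by trimming with Trim Galore, aligning to mm10 with HISAT2 and counting with featureCounts. Their versions, the annotation, the use of strand and the handling of reads with several matches are not given in the sources used here. The labels name an Illumina stranded total RNA kit and the study's methods a SMARTer pico kit.

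A gene was kept if 3 or more libraries held 10 counts or more (19925 of 24348). The 4423 others held 0.0429% of all counts. IC was compared with vehicle by the Wald test of DESeq2 (version 1.42.0, R 4.3.3), the tool the study's methods name, with treatment as the only term and calls at a Benjamini-Hochberg adjusted p under 0.05 over all genes. DESeq2 gave 3870 genes no adjusted p. At a depth of 40114331 to 56714304 counts, counting error relative to the count is largest for genes of few reads such as Serpina3m. Its part in the spread between libraries was not measured. The script was tested on simulated data.

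Each choice was varied in turn, with edgeR (version 4.0.16, quasi-likelihood), total-count or TMM scaling, all genes unfiltered, 1 surrogate variable from sva (version 3.50.0), the replicate number as a block, each library left out, longest transcripts for lengths and a pseudocount of 10 for pattern likeness. The study's methods state batch removal with sva without the number of variables.

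Exon lengths, coordinates and coding sequences came from GENCODE M21, in which 23899 symbols matched, and promoters from RefSeq (GRCm38.p6). The members and lists were chosen with earlier results of these data known. All 9 members are named. Of other serpins, called genes and the 5 with the highest mean are named, except 1 that is not reported here. Of each list, up to 3 called genes with the smallest adjusted p are named or, where none was called, the 2 with the highest mean, and the 5 genes nearest to Serpina3n in pattern.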

Additional observations from a re-analysis of the deposited data

How the results depend on the processing

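The log2 fold changes of the 9 serpins moved by less than 1 SD between replicates in 99 of 99 alternative fits, and 0 reversed a called gene. Leaving out 1 of 3 libraries moves a group mean by less than 1 SD whatever the values. Fits with a library left out could therefore hardly pass this limit, and nothing is read from the 99. In them the log2 fold change ran from 2.37 to 3.70 for Serpina3m and from 1.53 to 1.86 for Serpina3n. That of Serpinh1 ran from 0.04 to 0.34, and that of Serpinb9 from −0.16 to 0.05. Where edgeR's quasi-likelihood test replaced DESeq2, 37 genes were called in place of 419, 1 serpin of the 9 in place of 2 and 3 list genes in place of 18. With 1 surrogate variable, on which vehicle replicate 2 stood apart from the other 5 libraries, 11 list genes were called. The cause was not tested. With a library left out, 281 (without vehicle replicate 2) to 677 genes (without vehicle replicate 1) were called, 1 to 4 of the 9 serpins, and 8 to 33 list genes. Of the other serpins, 0 were called in the 11 alternatives.

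The groups share replicate numbers, and deviations from group means of same-numbered libraries correlated at −0.0918, −0.164 and 0.0250 over 13435 genes, so the numbers were not taken as pairs. With a replicate block, DESeq2 called 320 genes, 2 of the 9 serpins and 12 list genes. Under total-count and TMM scaling, groups did not overlap for 3137 and 3158 genes, against 3140. With the longest transcript as length, vehicle levels per kb of Serpinb6a, Serpine2 and Serpinf1 became 7202, 1289 and 29419. Depth limits Serpina3m, which had 3 reads in vehicle replicate 3, more than any other of the 9.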
